A study of Mus musculus with 6 samples.

Results

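The genes described here code for 10 factors that form or bind the poly(A) tail of mRNA: Cstf1, Cstf2 and Cstf3, the subunits of cleavage stimulation factor (CstF); Cpsf2 and Cpsf3, subunits of the cleavage and polyadenylation specificity factor (CPSF); Cpsf6 and Nudt21, subunits of cleavage factor I; and Pabpc1, Pabpc4 and Pabpn1, poly(A)-binding proteins. They were chosen by name. A gene-level value was assigned to 7 of the 10, among 14860 genes that could be named on the array by a single symbol. Cpsf3, Nudt21 and Pabpc4 were named by no value of the array annotation used and were not analysed here. RNA came from the left ventricle of male wild-type C57BL/6 mice, with 2 arrays in each of 3 groups. Sham mice had a sham operation without pressure overload, and neither the labels nor the methods state the time after it. The 1 W TAC and 4 W TAC mice had the transverse aorta tied for 1 and 4 weeks, a surgical model in which the left ventricle thickens against a raised pressure. The whole ventricle was used, so that fewer cells of a type and less RNA per cell cannot be told apart in any of the values.

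The 3′ end of most mRNAs is made by cutting the new transcript and adding a poly(A) tail. CPSF reads the AAUAAA signal and holds the nuclease that cuts, CstF binds the U- or GU-rich stretch downstream of the cut, and cleavage factor I binds UGUA motifs upstream of it. Many genes have several such sites, and the amounts of CstF and cleavage factor I are known to shift the choice between them, which sets the length of the 3′ untranslated region. In the nucleus the tail is covered by PABPN1, which supports its growth by poly(A) polymerase, and in the cytoplasm by PABPC1, which joins the tail to the translation initiation complex and to deadenylases. The study asked how mRNA isoforms, polyadenylation site choice included, differ in the hypertrophied heart, and the levels of these factors bear on that question.

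The deposited values were log2 signals from Affymetrix Mouse Exon 1.0 ST arrays, which can be compared between arrays for 1 gene but not between genes. The arrays resembled each other closely, with correlations over the 14860 named genes from 0.968 to 0.988. The 4 measured cardiomyocyte markers (Actn2, Tnnt2, Ryr2 and Pln) had a mean signal from 12.24 to 12.41 on the 6 arrays, near the top of the scale, while Myh6, Tnni3 and Ttn were not measured. Nppa, Nppb, Acta1 and Postn, genes known to be induced by pressure load, were higher on all 4 TAC arrays than on both Sham arrays. The first Sham array and the first 4 W TAC array stood apart in Ucp1, the uncoupling protein of brown fat, with signals of 8.21 and 6.35 against 3.96 to 4.40 on the other 4. Of the 5 measured brown fat markers, Adipoq also stood apart there, at 5.27 and 5.29 against 3.53 to 3.91. Dio2 was highest on the second 4 W TAC array (6.97), and Cidea differed little (6.85 to 7.50). Fabp4 was highest on the first Sham array (7.84), but its 7.12 on the first 4 W TAC array was below the second Sham array (7.14). The presence of brown fat was not tested. After adjustment over all 23332 values of the array, limma called 1, which the annotation gives no gene, at 1 W TAC against Sham (0.00429%) and 0 at 4 W TAC against Sham (0%) and at 4 W against 1 W TAC (0%), while 2654, 1330 and 1521 had an unadjusted p under 0.05. Where a test is given below, it is limma with Benjamini-Hochberg adjustment over all values, unless another is named. An exact permutation test of 2 arrays against 2 cannot give a p below 0.333.

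Pabpc1, the main cytoplasmic poly(A)-binding protein, had the widest difference of the 7 measured factors between 1 W TAC and Sham. Its log2 signal was 10.21 and 10.33 in Sham, 10.99 and 11.21 in 1 W TAC, and 10.63 and 10.66 in 4 W TAC. The 3 groups did not overlap: both Sham arrays were lowest, both 4 W TAC arrays lay between, and both 1 W TAC arrays were highest. The log2 ratio of 1 W TAC to Sham was 0.83 ± 0.17 (SE, n = 2 per group), or 1.78-fold, with a 95% interval from 0.41 to 1.25. Its unadjusted limma p was 0.00304, and the adjusted p was 0.199, so that the difference did not pass the threshold of 0.05. The outcome of the adjustment depended on which values entered it. With limma run on the values with a single gene symbol the adjusted p was 0.0527, and with only the values at or above the median signal it was 0.04995, just under the threshold. In that first setting 1.37% of the values were called as higher at 1 W TAC. Counted in either direction, 268 values were called there. With only the values at or above the median signal, where Pabpc1 was called, the count was 315. The ratio of Pabpc1 exceeded that of 96.4% of all genes, with 520 genes above it. Pabpc1 belongs to a set of genes that the study selected partly on these 1 W TAC arrays, so that its direction there is not independent evidence.

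The Pabpc1 signal was nearer to that of Sham after 4 weeks. The log2 ratio to Sham was 0.38 ± 0.17 (SE, n = 2 per group), or 1.3-fold, with a 95% interval from -0.04 to 0.79 and an adjusted limma p of 0.911. Against 1 W TAC it was -0.46 ± 0.17, with a 95% interval from -0.87 to -0.04, an unadjusted p of 0.0372 and an adjusted limma p of 0.734. Neither comparison passed the threshold. The 3 comparisons share arrays, since both TAC groups were set against the same 2 Sham mice. The 2 arrays of each group lay close to each other, 0.12 apart in Sham, 0.22 in 1 W TAC and 0.03 in 4 W TAC. Leaving out any single array left the ratio to Sham between 0.72 and 0.94 at 1 W TAC, and without the pair of arrays high in Ucp1 it was 0.77.

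**Figure D1:**
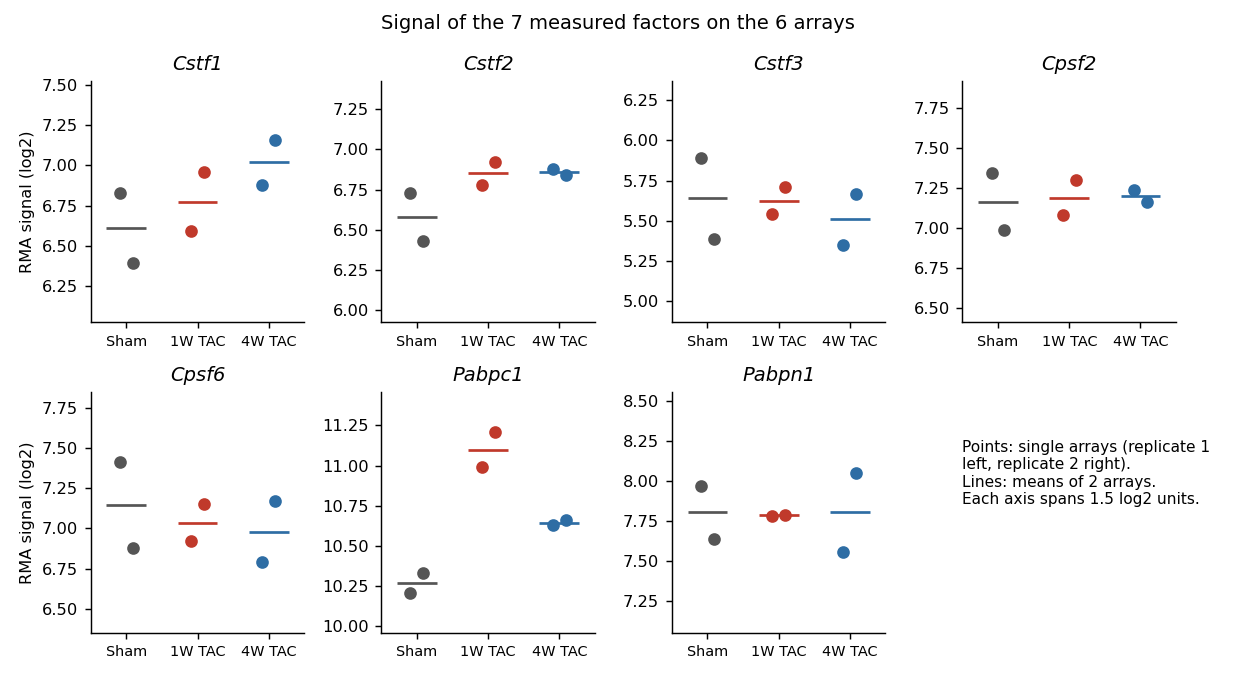
Log2 signal of each measured factor (vertical axis, 1.5 log2 units in every panel) on the 2 arrays of Sham, 1 W TAC and 4 W TAC, with a line at the mean of each group. Pabpc1 is the single panel in which all 3 groups are apart, at 10.21 to 10.33, 10.99 to 11.21 and 10.63 to 10.66, while in most other panels the 2 arrays of a group spread over more than the distance between the means.

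The mean signals of fibroblast, macrophage and proliferation markers, and of pressure load genes, moved with Pabpc1. The mean signal of 7 fibroblast markers was 8.43 and 8.34 in Sham, 10.20 and 10.46 in 1 W TAC, and 9.29 and 9.63 in 4 W TAC. All 7 (Col1a1, Col3a1, Postn, Lum, Dcn, Pdgfra and Tcf21) were higher in both TAC groups than in Sham without overlap. Of all genes, 22.1% were higher in this way at 1 W TAC and 17.3% at 4 W TAC. The 7 macrophage markers ran from 6.25 to 6.38 in Sham, from 7.35 to 7.82 in 1 W TAC and from 6.54 to 6.85 in 4 W TAC. All 7 were higher at 1 W TAC than in Sham without overlap, beside 22.1% of all genes. The 5 measured proliferation markers had means of 4.37 to 4.44, 5.13 to 5.90 and 4.45 to 4.72 in the same order of groups. The order of these list means, Sham below 4 W TAC below 1 W TAC, was thus the same as for Pabpc1. The mean of 4 pressure load genes (Nppa, Nppb, Acta1 and Postn) had this order too. It was 9.82 and 10.14 in Sham, 11.94 and 12.27 in 1 W TAC, and 11.44 and 11.85 in 4 W TAC. Not every gene followed this order. Among the pressure load genes, Acta1 had a higher mean at 4 W (12.42) than at 1 W TAC (12.16). The group means of Dcn (12.27 and 12.30) and Pdgfra (7.23 and 7.30) were slightly higher at 4 W than at 1 W TAC. Mki67 had the same mean in Sham and 4 W TAC (4.795). At 4 W TAC 3 of 7 macrophage and 1 of 5 proliferation markers were higher than Sham without overlap, beside 17.3% of all genes. The part of these cells in the Pabpc1 signal was not tested. The means of 6 endothelial markers had another order, and lay at 8.61 to 8.88 in Sham and 8.60 to 8.66 in 1 W TAC, and at 8.86 and 9.09 in 4 W TAC. At 4 W TAC 3 of 6 were above Sham and 5 of 6 above 1 W TAC without overlap, beside 17.3% and 20.3% of all genes.

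The genes whose pattern over the 6 arrays lay nearest to that of Pabpc1, measured as the root mean square distance after centring each gene on its own mean, were Ptk7 (0.0521), Nt5e (0.0559) and Lpar1 (0.0652), out of 14860 genes. Ptk7, a receptor-like protein of Wnt signalling, had signals of 5.43 and 5.53 in Sham, 6.14 and 6.42 in 1 W TAC, and 5.79 and 5.97 in 4 W TAC. Nt5e, the enzyme that makes adenosine outside the cell, differed from Sham by 0.82 at 1 W TAC and 0.36 at 4 W TAC on the log2 scale. For Lpar1, a receptor of lysophosphatidic acid, these differences were 0.82 and 0.43.

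Pabpn1, the nuclear poly(A)-binding protein, showed no such order. Its signal was 7.97 and 7.64 in Sham, 7.78 and 7.79 in 1 W TAC, and 7.56 and 8.05 in 4 W TAC. The groups overlapped in every comparison, and the 4 W TAC arrays held both the lowest and the highest value. The log2 ratio to Sham was -0.02 ± 0.23 (SE, n = 2 per group) at 1 W TAC, with a 95% limma interval from -0.59 to 0.55, and 0 at 4 W TAC, with an interval from -0.57 to 0.57. The intervals of Pabpn1 and Pabpc1 at 1 W TAC overlapped, and the difference between the genes was not tested.

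The CstF genes, which code for a complex of 3 different subunits, did not move as a group. For Cstf1 and Cstf2 the signal was higher in TAC without overlap in some comparisons, for Cstf3 in none, and no difference passed the limma test. The 250 bases before the RefSeq start of each gene (build GRCm38.p6, all on the plus strand) are shown because these are the 3 members of a single complex, and because 2 of them share a motif. Capitals mark TGACGT (part of the cAMP response element), CCAAT boxes and CCGGAAG (an ETS site), searched on both strands with no overlap between the matches. The windows lie at chr2:172370753-172371002 for Cstf1, chrX:134058926-134059175 for Cstf2 and chr2:104590234-104590483 for Cstf3.
Cstf1: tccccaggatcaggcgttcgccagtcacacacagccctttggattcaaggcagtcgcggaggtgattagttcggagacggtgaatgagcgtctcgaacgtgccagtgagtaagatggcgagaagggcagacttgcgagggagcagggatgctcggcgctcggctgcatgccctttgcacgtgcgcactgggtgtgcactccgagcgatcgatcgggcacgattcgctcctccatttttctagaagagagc
Cstf2: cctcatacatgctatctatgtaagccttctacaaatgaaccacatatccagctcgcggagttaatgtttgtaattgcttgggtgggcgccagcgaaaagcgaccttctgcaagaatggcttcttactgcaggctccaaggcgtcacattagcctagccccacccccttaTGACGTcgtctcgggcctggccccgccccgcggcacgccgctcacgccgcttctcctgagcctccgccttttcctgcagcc
Cstf3: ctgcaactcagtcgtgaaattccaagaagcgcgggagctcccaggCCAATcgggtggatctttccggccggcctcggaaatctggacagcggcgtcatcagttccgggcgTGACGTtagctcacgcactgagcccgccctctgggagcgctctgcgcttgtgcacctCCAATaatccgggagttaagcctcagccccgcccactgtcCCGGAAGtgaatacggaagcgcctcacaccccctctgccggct

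TGACGT was present in the windows of Cstf2 and Cstf3 and not in that of Cstf1. Among the 6 measured factors with a window it was found in 3, the third being Cpsf6, beside 6.47% of 32851 windows of all genes. Pabpc1 had no window and was not searched for any motif. CCAAT was found in Cstf3 and Pabpn1, beside 33.8% of all windows, and CCGGAAG in Cstf3 alone of the 6 factors searched, beside 6.91%. The GC box GGGCGG was found in Cstf2, Cstf3 and Cpsf6, beside 32.7% of all windows. None of the 6 factors searched held TATAAA (12.4% of all windows) or the E2F letters TTTCCCGC or TTTGGCGC (1.3%). The motifs were chosen after the sequences had been seen, and a match describes the letters only. Of the pair that share TGACGT, Cstf2 was higher than Sham without overlap in both TAC groups and Cstf3 in neither.

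Cstf2, the subunit that binds the RNA, had signals of 6.73 and 6.43 in Sham, 6.78 and 6.92 in 1 W TAC, and 6.88 and 6.84 in 4 W TAC. All 4 TAC arrays were above both Sham arrays. Each exceeded the higher Sham array by less than the distance between the 2 Sham arrays. The log2 ratio to Sham was 0.27 ± 0.18 (SE, n = 2 per group) at 1 W TAC, with a 95% limma interval from -0.18 to 0.72 and an adjusted p of 0.673. At 4 W TAC it was 0.28 ± 0.18, with an interval from -0.17 to 0.73 and an adjusted limma p of 0.968. Without the second Sham array these ratios were 0.12 and 0.13, and without the first 0.42 and 0.43. The difference between the TAC groups was 0.01, far below the distance between the 2 Sham arrays. The genes nearest to Cstf2 in pattern were Sorl1 (distance 0.025), Eif1a (0.0422) and Lrch2 (0.0449).

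Cstf1, the WD-repeat subunit, had signals of 6.83 and 6.39 in Sham, 6.59 and 6.96 in 1 W TAC, and 6.88 and 7.16 in 4 W TAC. Both 4 W TAC arrays were above both Sham arrays, while the 1 W TAC arrays overlapped with each of the other groups. The log2 ratio to Sham was 0.41 ± 0.24 (SE, n = 2 per group) at 4 W TAC, with a 95% limma interval from -0.19 to 1.01 and an adjusted p of 0.967. At 1 W TAC it was 0.17 ± 0.24, with an adjusted limma p of 0.891. Without single arrays the ratio at 4 W TAC ran from 0.19 (without the second Sham array) to 0.63 (without the first), it was 0.27 without the second 4 W TAC array, and it was 0.77 without both arrays high in Ucp1.

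Cstf3, the scaffold on which the other subunits sit, had signals of 5.89 and 5.39 in Sham, 5.54 and 5.71 in 1 W TAC, and 5.35 and 5.67 in 4 W TAC. All groups overlapped, and the 2 Sham arrays were further apart than any of the group means. The log2 ratios to Sham were -0.02 ± 0.24 at 1 W TAC (95% limma interval -0.60 to 0.57) and -0.13 ± 0.24 at 4 W TAC (-0.72 to 0.46). Cstf2t, an autosomal copy of Cstf2 known from the germ line, had ratios of -0.07 and 0.17.

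Cpsf2 and Cpsf6 represent the other complexes of the cleavage machinery. Cpsf2, a partner of the CPSF nuclease, had signals of 7.34 and 6.99 in Sham, 7.08 and 7.30 in 1 W TAC, and 7.24 and 7.16 in 4 W TAC. Both TAC groups lay inside the range of the 2 Sham arrays. The log2 ratios to Sham were 0.03 ± 0.20 at 1 W TAC (95% limma interval -0.46 to 0.51) and 0.04 ± 0.20 at 4 W TAC (-0.45 to 0.52). Cpsf6, the larger subunit of cleavage factor I, had signals of 7.41 and 6.88 in Sham, 6.92 and 7.15 in 1 W TAC, and 6.79 and 7.17 in 4 W TAC. The groups overlapped here too, with the highest value in Sham and the lowest in 4 W TAC. Its log2 ratios to Sham were -0.11 ± 0.25 at 1 W TAC (95% limma interval -0.74 to 0.52) and -0.17 ± 0.25 at 4 W TAC (-0.80 to 0.47). Differences as large as these intervals allow were not detectable with 2 arrays per group.

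**Figure D2:**
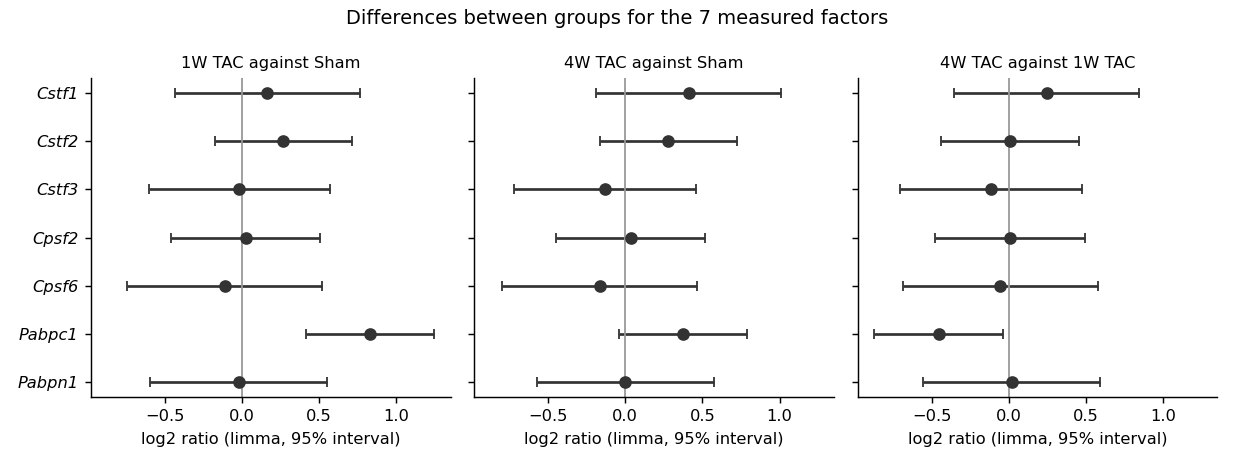
Log2 ratio (horizontal axis) of each measured factor in the 3 comparisons, with points at the limma estimate and bars for its 95% interval (n = 2 arrays per group). The interval of Pabpc1 lies above 0 at 1 W TAC against Sham (0.41 to 1.25) and below 0 at 4 W against 1 W TAC (-0.87 to -0.04), before any adjustment for the number of genes, and the intervals of the other 6 factors include 0 in all 3 comparisons.

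Over the 7 factors the median log2 ratio was 0.03 at 1 W TAC, 0.04 at 4 W TAC and 0.01 between the TAC groups, beside 0.01, 0.04 and 0.02 over all genes. The median of the 7 turned on single arrays. Without the first Sham array it was 0.24 in the 1-week and 0.21 in the 4-week comparison, and without the second Sham array -0.15 and -0.14. Without the first 4 W TAC array the 4-week value was 0.25. At 1 W TAC 2 of the 7 (Pabpc1 and Cstf2) were higher than Sham without overlap and 0 lower, where 22.1% of all genes were higher and 20.4% lower in the same way. At 4 W TAC 3 of the 7 (Pabpc1, Cstf1 and Cstf2) were higher and 0 lower, where 17.3% of all genes were higher and 12.9% lower. Between the TAC groups 1 (Pabpc1) was lower at 4 W TAC and 0 higher, where 20.3% of all genes were higher and 16.6% lower. By limma's adjusted p 0 of the 7 were called in any comparison. At an unadjusted limma p under 0.05 Pabpc1 was the 1 factor of 7 called at 1 W TAC against Sham and at 4 W against 1 W TAC. Of all 23332 values, 2654 and 1521 were called in the same way in these 2 comparisons.

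The replicate arrays differed in the same direction for most of these factors. In Sham the first array was higher than the second for all 6 factors other than Pabpc1, by 0.30 to 0.53 with a median of 0.40, while Pabpc1 itself was 0.12 lower on the first array. For 6107 genes of like signal (5.59 to 7.80) the median of that difference was 0.18. In 1 W TAC the first array was lower for all 6 factors, by a median of 0.20 (genes of like signal 0.15), and in 4 W TAC it was lower for 4 of 6. The first Sham array was also the array with the highest Ucp1 signal, and the part of this in the values of the 6 factors was not tested.

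Of 68 other genes of the same pathway, 59 were measured. By limma's adjusted p 0 were called in any comparison, and at an unadjusted p under 0.05 there were 0 higher and 1 lower at 1 W TAC, 0 higher and 2 lower at 4 W TAC, and 1 higher and 0 lower at 4 W against 1 W TAC. Of all 23332 values, 2654, 1330 and 1521 had an unadjusted limma p under 0.05 in these comparisons, in either direction. The median log2 ratio of the 59 genes was -0.08 at 1 W TAC, with 5 higher (8.47%) and 12 lower (20.3%) than Sham without overlap, beside 22.1% and 20.4% of all genes. After 4 weeks it was 0.02, with 3 higher (5.08%) and 4 lower (6.78%), beside 17.3% and 12.9% of all genes. The share that was lower at 1 W TAC was thus close to that of all genes, and the other 3 shares were below it. A single gene, Slbp, which binds the stem-loop of histone mRNAs, exceeded the ratio of Pabpc1 at 1 W TAC. Its ratio of 1.57 came from a faint signal of 1.33 and 3.64 on the Sham arrays, and the lowest gene of its list was Ints9, at -0.01.

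The 6 measured genes of CPSF and its partners had log2 ratios at 1 W TAC from -0.20 for Wdr33, the subunit that reads the AAUAAA signal, to 0.07 for Cpsf4, and at 4 W TAC from -0.08 to 0.05. Sympk, the scaffold of the complex, was at -0.13 and 0.05. The 4 measured genes of cleavage factors I and II had a median of -0.14 at 1 W TAC, from -0.20 for Clp1, an RNA kinase, to 0.05 for Cpsf7, where the lower quartile of all genes was -0.16. No gene of cleavage factors I and II differed from Sham without overlap in either TAC group. Of all genes, 22.1% were higher and 20.4% lower in this way at 1 W TAC, and 17.3% and 12.9% at 4 W TAC.

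Among 6 measured poly(A) polymerases and nucleotidyltransferases the ratio at 1 W TAC ran from -0.35 for Papolg to 0.59 for Tent2, a cytoplasmic poly(A) polymerase. Tent2 had signals of 7.75 and 7.71 in Sham, 7.94 and 8.70 in 1 W TAC, and 7.78 and 7.71 in 4 W TAC. The 1 W TAC value rested mostly on the second array, although both were above Sham. Papola, the main nuclear poly(A) polymerase, was at 0.12 at 1 W TAC and 0.23 after 4 weeks.

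Other genes of poly(A)-binding proteins did not share the pattern of Pabpc1. Zc3h14, a nuclear zinc finger protein that limits tail length, had signals from 9.29 to 9.49 on all 6 arrays. Pabpc2 and Pabpc6, close relatives of Pabpc1 with which probes could share signal, had faint signals, from 3.91 to 4.99 and from 3.18 to 3.53. Pabpc2 had the highest ratio at 1 W TAC of the list after Pabpc1 (0.31), with overlapping groups, and Pabpc5 the lowest (-0.24). Pabpc5 was at -0.55 at 4 W TAC, 1 of the 2 genes below Sham at an unadjusted limma p under 0.05 there.

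**Figure D3:**
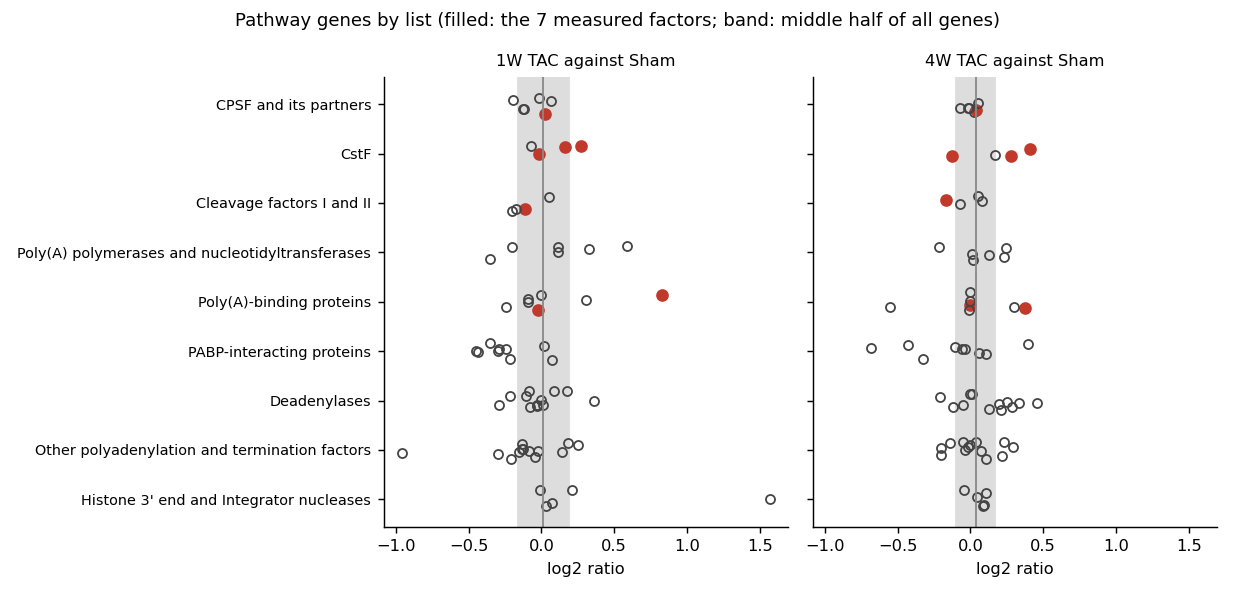
Log2 ratio to Sham (horizontal axis) of every measured gene of the 3′ end and poly(A) lists, by list, at 1 W TAC (left) and 4 W TAC (right). Filled points are the 7 measured factors, the grey line is the median of all genes and the band holds their middle 50%. Pabpc1 lies at 0.83 on the left and 0.38 on the right, Slbp at 1.57 and Cpeb3 at -0.96 on the left.

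Proteins that bind PABPC1 formed the list with the lowest median at 1 W TAC, -0.29 over 9 measured genes, with 7 of 9 lower than Sham without overlap beside 20.4% of all genes. None passed the adjusted limma test, and 0 of 9 had an unadjusted p under 0.05, beside 2654 of all 23332 values. Paip1, which binds PABPC1 and promotes translation, had signals of 9.34 and 9.23 in Sham, 8.90 and 8.77 in 1 W TAC, and 8.81 and 9.11 in 4 W TAC. Its ratio of -0.45 at 1 W TAC was the lowest of the list, and its values stayed below Sham at 4 W TAC. Paip2 and Paip2b, which displace PABPC1 from the tail, were at -0.22 and -0.29 in 1 W TAC and at -0.06 and 0.11 in 4 W TAC. Tob1 and Tob2, which link PABPC1 to the CCR4-NOT deadenylase, were at -0.30 and -0.44. For Tob2 the 2 Sham arrays, 8.28 and 7.69, were themselves further apart than the groups. The other genes lower without overlap were Larp4b (-0.35) and Larp4 (-0.25). Larp1 (0.02) and Gspt1 (0.07), the latter a translation termination factor, overlapped with Sham. At 4 W TAC the median of the list was -0.06, with 2 of 9 lower and 1 higher without overlap, beside 12.9% and 17.3% of all genes. Larp4, at -0.68, was the other gene with an unadjusted limma p under 0.05 there. Its signal was faint, from 3.18 to 4.25 on the 6 arrays.

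**Figure D4:**
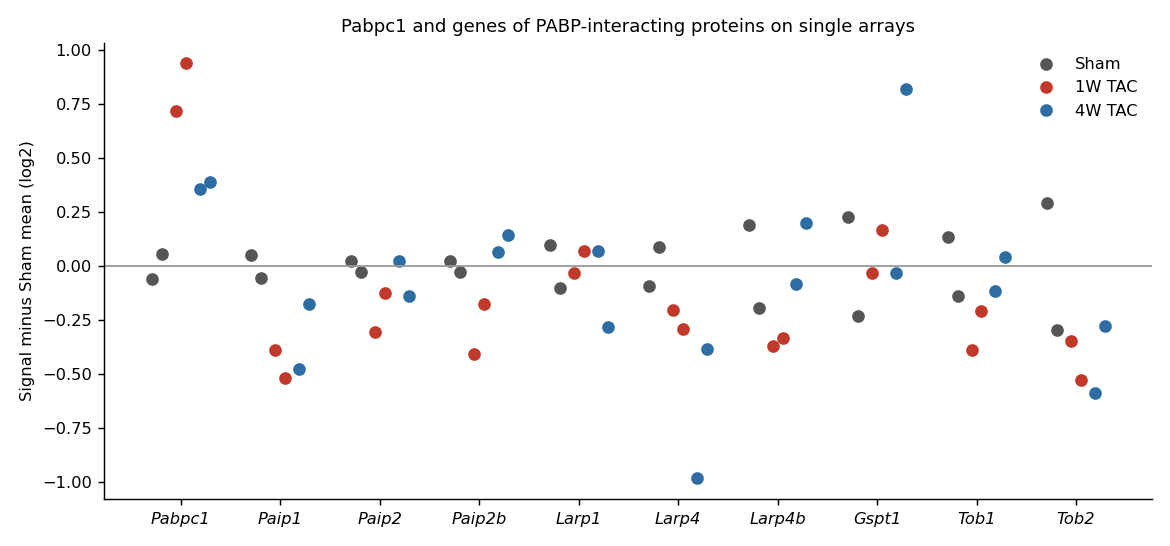
Signal on each array minus the Sham mean of the same gene (vertical axis, log2) for Pabpc1 and the 9 measured genes of PABP-interacting proteins, coloured by group. Both 1 W TAC arrays lie above Sham for Pabpc1 and below both Sham arrays for 7 of the 9 other genes, with Larp1 and Gspt1 as the exceptions.

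The 12 measured deadenylase genes had a median of -0.03 at 1 W TAC, from -0.29 for Cnot10 to 0.36 for Cnot6, a catalytic subunit of CCR4-NOT, and 0.16 at 4 W TAC. Cnot1, the scaffold of CCR4-NOT, was the 1 gene of the list lower than Sham at 1 W TAC without overlap, at -0.22, beside 20.4% of all genes. Of 13 other polyadenylation and termination factors, Cpeb3, which binds cytoplasmic polyadenylation elements and represses translation, had the lowest ratio. Its signal was 7.90 and 7.19 in Sham, 6.57 and 6.61 in 1 W TAC, and 7.22 and 7.59 in 4 W TAC. The 1 W TAC arrays were below all others, and the 4 W TAC arrays lay inside the Sham range. The log2 ratio was -0.96 at 1 W TAC against Sham, with an unadjusted limma p of 0.0159, and 0.82 at 4 W against 1 W TAC. Cpeb1, Cpeb2 and Cpeb4 were at 0.25, -0.13 and -0.13 at 1 W TAC. Cpeb1 had the highest ratio of this list.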

How the data were processed

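Per the labels and methods, RNA of 6 mouse ventricles was hybridised to Affymetrix exon arrays, and the deposited log2 signals are RMA values that the authors computed in Expression Console (versions not given), with background correction, quantile normalization and a probe summary per transcript cluster. Quantile normalization is meant to remove shifts common to a whole array. Some differences remained, as the median over the named genes ran from 5.85 (second Sham array) to 6.04 (second 1 W TAC array). Depth in reads does not apply. The number of arrays limits the precision. The labels name Trizol and the methods a column kit for the extraction. The labels name no batch, and p values measure only the spread between these arrays.

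All 23332 values were fitted with limma 3.58.1 in R 4.3.3 (lmFit with 1 mean per group, eBayes, 3 comparisons, 3 residual degrees of freedom), and p values were adjusted over all of them. Array annotation named 1 gene for 14996 values, several for 1019 and none for 7317. For 135 genes with several values the one with the highest mean was kept. Groups do not overlap where both arrays of 1 group lie beyond both of the other. Plots used Python 3.11.15 with matplotlib 3.10.9. Promoter sequences came from RefSeq (GRCm38.p6), with entries matched for 6 of the 7 measured factors, all but Pabpc1. No source used here names the build of the array annotation. The fit was tested on simulated data.

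The members and lists were chosen with earlier results of these data known. All members were named, and from each list of other pathway genes the highest and the lowest at 1 W TAC. Further list genes, motifs and marker genes were named after their values had been seen. Alternatives covered the values tested, normalization, the prior, the samples fitted, a replicate block and the methods' t-test.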

Additional observations from a re-analysis of the deposited data

How the results depend on the processing

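The ratio of Pabpc1 kept its direction under every alternative run, from 0.72 to 0.94 at 1 W TAC, 0.32 to 0.44 at 4 W TAC and -0.57 to -0.35 between the TAC groups. Its adjusted limma p at 1 W TAC ran from 0.04995 (values at or above the median signal) to 0.668 (without the second 1 W TAC array), and the methods' t-test gave an unadjusted p of 0.022. With 2 arrays per group, the other ratios near 0 changed sign easily. Without single arrays they ran from -0.055 to 0.39 (Cstf1), -0.27 to 0.24 (Cstf3), -0.15 to 0.20 (Cpsf2), -0.38 to 0.16 (Cpsf6) and -0.19 to 0.15 (Pabpn1) at 1 W TAC, from -0.38 to 0.12 (Cstf3), -0.14 to 0.21 (Cpsf2), -0.43 to 0.10 (Cpsf6) and -0.25 to 0.25 (Pabpn1, 0 with all arrays) at 4 W TAC, and from -0.06 to 0.08 (Cstf2), -0.28 to 0.045 (Cstf3), -0.10 to 0.12 (Cpsf2), -0.25 to 0.14 (Cpsf6) and -0.23 to 0.27 (Pabpn1) between the TAC groups. Without both arrays high in Ucp1, chosen after seeing the data, the sign turned at 1 W TAC for Cstf3 (0.24), Cpsf6 (0.16) and Pabpn1 (0.15), at 4 W TAC for Cstf3 (0.28) and Cpsf6 (0.29), where Pabpn1 reached 0.41, and between the TAC groups for Cstf2 (-0.01), Cstf3 (0.045), Cpsf2 (-0.03) and Cpsf6 (0.14), and the median of the members at 4 W TAC was 0.33 against 0.04. Centring array medians turned Cpsf2 at 1 W TAC (-0.02), and quantile normalization turned Cstf2 (-0.017), Cpsf2 (-0.028) and Pabpn1 (-0.018) between the TAC groups. None of these passed a test. Under quantile normalization 2 members, not 1, did not overlap between the TAC groups.

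The count of values called at 1 W TAC, 1 over all values, was 268 with single-symbol values, 315 with those at or above the median signal, 4 with quantile normalization, 3 with array medians centred, 14 with a prior that follows the signal, 829 by the methods' t-test unadjusted with a fold above 1.5 and 0 after Benjamini-Hochberg, 0 with both groups fitted alone, 0 without both arrays high in Ucp1, and 0 to 1 without single arrays. At 4 W TAC, from 0, it was 1, 2 and 326, and between the TAC groups, from 0, it was 2, 2 and 355, each with single-symbol values, brighter values and the t-test, and 1 with array medians centred. The cause was not tested. The difference between the first and second array of a group correlated over all values at -0.15 (Sham and 1 W TAC), -0.17 (Sham and 4 W TAC) and 0.08 (both TAC groups). With a single difference per group, these correlations cannot show whether arrays of the same replicate number were paired. With the replicate number as a block the count at 1 W TAC was 0 and the adjusted limma p of Pabpc1 0.343.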
